A study of Homo sapiens with 18 samples.

Results

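Among genes well above background on all 6 untreated arrays, DMKN, CLEC3A and CACNG6 were those furthest above, and TM4SF4, DDC and KBTBD11 among those furthest below, their HT29 level in untreated HTOXAR3, an oxaliplatin-resistant line derived from HT29. These 6 of the 36204 gene names on the arrays were selected on that gap between the untreated arrays, so the gap itself is a description here, and what was tested is how the genes behaved in the treated cells, whose arrays do not enter that gap. At the oligo with the highest mean for each gene, DMKN was 262-fold, CLEC3A 237-fold and CACNG6 48.6-fold higher in untreated HTOXAR3. At another DMKN oligo, also well above background on all untreated arrays, the gap was 9.29-fold. TM4SF4 was 111-fold, DDC 65.1-fold and KBTBD11 56.7-fold lower in untreated HTOXAR3. They were taken from the 3802 names called between the untreated lines and well above background on all 6 untreated arrays, of which 2033 were higher and 1769 lower in HTOXAR3. Just outside the choice stood MAGEA6 (log2 difference 5.00) and MAGEA12 (4.98) on the higher side, after CACNG6 at 5.604. On the lower side IGFBP2 (-4.89) and FGF19 (-4.68) followed KBTBD11 at -5.82. With dim names included, CACNG6 held place 6 on the higher side. AUTS2 (-6.05) lay between TM4SF4 and DDC and was not chosen, for a reason that is not recorded. As 6.26% of all names were called higher and 5.28% lower between the untreated lines, and the choice used that comparison, nothing is read from the members' calls in it.

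RNA from both lines was measured on 18 single-colour Agilent arrays, 3 for each of 6 groups, to ask what Curcumin does to cells treated with oxaliplatin (OXA). HT29 is a human colorectal cancer line, and HTOXAR3 is a single subline of it, obtained by continuous exposure to increasing OXA, so that resistance and whatever else sets this subline apart cannot be told apart. Cells of each line were left untreated, given OXA or given OXA plus 10 µM Curcumin for 24 h, with OXA at 10 µM in HT29 and at 30 µM in HTOXAR3. After treatment the line and the OXA dose therefore cannot be told apart, and no group received Curcumin alone. The share of the 58717 transcript spots well above background, as the scanner software marks them, was 58.0% to 60.7% in untreated HT29, 62.4% to 63.0% after OXA and 59.3% to 63.6% after OXA plus Curcumin. In HTOXAR3 it was 52.4% to 62.2%, 62.3% to 63.2% and 56.9% to 62.0% in the same order, the lowest being the second untreated array. The arrays lay on 3 slides, called A, B and C here, with replicate 1 of untreated HT29 and of HT29 under OXA alone on slide A and 8 arrays on each of the others. A gene is said to have risen or fallen, or to be called, where limma gave it a Benjamini-Yekutieli adjusted p below 0.05 over all names and a fold change above 1.2. The labels call the arrays of each group biological replicates 1 to 3, and 3 arrays per group limit the precision of the p-values.

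The members belong to unrelated families, and none is a textbook marker of colon epithelium. DMKN encodes dermokine, a protein secreted by differentiating keratinocytes that is made from several alternative transcripts. CLEC3A encodes a C-type lectin of cartilage, and CACNG6 a gamma subunit of voltage-dependent calcium channels. TM4SF4 encodes a membrane protein of the L6 family, which spans the membrane several times. DDC encodes aromatic L-amino acid decarboxylase, the enzyme that makes dopamine and serotonin from their precursors, and is active in enteroendocrine cells and kidney tubule. KBTBD11 encodes a protein with kelch repeats and a BTB domain, a type of adaptor that can bring substrates to CUL3 ubiquitin ligases.

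The table of RefSeq promoters used (GRCh38.p14) held 4 of the 6 members, DMKN, CACNG6, TM4SF4 and DDC, with 7 start sites in all. The 120 bases before the start are shown for DMKN, because its start sites differ, for CACNG6, whose groups ranked as those of DMKN did, and for TM4SF4, the gene furthest the other way. Each runs 5′ to 3′ along the gene's strand, with matches to a searched motif in capitals. The DMKN windows lie at chr19:35510471-35510590, chr19:35513650-35513769 and chr19:35501912-35502031 on the minus strand, the CACNG6 window at chr19:53991517-53991636 and the TM4SF4 window at chr3:149474577-149474696 on the plus strand.
DMKN start 1: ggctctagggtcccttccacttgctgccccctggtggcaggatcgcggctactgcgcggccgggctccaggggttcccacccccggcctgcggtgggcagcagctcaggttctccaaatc
DMKN start 2: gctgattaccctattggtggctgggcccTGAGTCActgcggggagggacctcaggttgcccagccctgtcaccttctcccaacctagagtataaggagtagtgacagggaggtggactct
DMKN start 3: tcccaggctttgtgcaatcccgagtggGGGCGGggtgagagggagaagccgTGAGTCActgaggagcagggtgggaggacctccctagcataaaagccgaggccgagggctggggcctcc
CACNG6: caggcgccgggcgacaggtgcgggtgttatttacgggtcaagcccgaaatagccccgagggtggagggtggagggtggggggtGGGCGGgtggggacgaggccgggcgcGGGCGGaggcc
TM4SF4: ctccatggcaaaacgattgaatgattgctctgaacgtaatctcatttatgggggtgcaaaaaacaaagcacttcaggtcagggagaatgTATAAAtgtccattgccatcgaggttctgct
The letters of the activator protein 1 motif, TGAGTCA or TGACTCA on the other strand, began 92 bases before DMKN start 2 and 69 bases before start 3. Within 250 bases before the start, 4.20% of 35116 RefSeq promoters hold them. GGGCGG, or CCGCCC on the other strand, the letters of a GC box, stood 93 bases before DMKN start 3 and at 178, 37 and 11 bases before the CACNG6 start, of which the last 2 are in the window shown. It occurs in 42.6% of promoters. TM4SF4 held the letters TATAAA, known as a TATA box, 31 bases before its start, where they occur on either strand somewhere in the 250 bases of 10.72% of promoters. No motif searched for was found before either DDC start. The 250 bases before the CACNG6 start had a GC content of 69.2% and 21 CpG pairs, against medians of 58.0% and 11 over all promoters. TM4SF4, with 43.2% and 4 CpG pairs, lay on the other side of those medians, as did the DDC starts in CpG pairs (2 and 3). These matches describe letters, and whether a factor bound there was not measured.

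Both lines carried most markers of colon epithelium. All 12 such genes on the list (EPCAM, CDH1, KRT8, KRT18, KRT19, KRT20, VIL1, CDX1, CDX2, LGALS4, CDH17 and GPA33) were on the array. Of the 12, 11 to 12 were well above background on untreated HT29 arrays, 10 to 11 under OXA and 11 under OXA plus Curcumin. On HTOXAR3 arrays it was 10 untreated, 10 under OXA and 9 under OXA plus Curcumin. 3 of the 12 were lower in untreated HTOXAR3 and none higher: LGALS4 (log2 difference -2.08, adjusted p = 1.24e-09), VIL1 (-1.61, adjusted p = 1.61e-08) and CDH17, at least 2.14-fold lower. CDH17 was well above background on only 2 of the 3 untreated HT29 arrays. Between the untreated lines 6.26% of all names were called higher and 5.28% lower in HTOXAR3. The list's median difference was -0.11 against -0.03 over all names. When Curcumin was added to OXA in HTOXAR3, KRT20 (0.52, adjusted p = 0.00924) and KRT19 (0.34, adjusted p = 0.00345) rose and LGALS4 (-0.62, adjusted p = 0.000605) and GPA33 (adjusted p = 0.0283) fell, the call of GPA33 being lost with a normexp offset of 16 or 50. Of 36203 names, 1602 rose and 1596 fell there. In HT29, where 1136 names rose and 866 fell, limma called 0 of the 12, with 3 at an unadjusted p below 0.05. The genes called here were named after their values were seen.

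Markers of the cell types that the members' known roles bring to mind were looked at beside them. Their counts are to be read beside the 6.26% of all names called higher and 5.28% lower in untreated HTOXAR3. Of 22 enteroendocrine markers, 2 were higher in untreated HTOXAR3, CCK (log2 difference 1.62, adjusted p = 1.34e-06) and SCG5 (at least 2.33-fold), and none lower, with a median of -0.03. SCG5 was well above background on only 2 of the 3 untreated HTOXAR3 arrays. The defining markers CHGA, CHGB, SYP and INSM1 were not well above background on the untreated arrays. Of 5 basal and stratified epithelial markers only KRT14 was called, higher in HTOXAR3 (1.26, adjusted p = 0.000122), while KRT5 and TP63 were not well above background on the untreated arrays. The list's median was 0.17. The part of any of these in the members' levels was not tested.

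DMKN was lower in HT29 than in HTOXAR3 under every treatment. At the oligo with the highest mean it was highest under OXA in each line, which in HT29 was not seen at another of its oligos, described below. Levels are normalised log2 intensities of the oligo with the highest mean for each gene, given for replicates 1, 2 and 3 in turn. DMKN read 5.53, 5.05 and 5.08 in untreated HT29, 7.15, 6.996 and 7.17 under OXA and 6.05, 6.26 and 5.99 under OXA plus Curcumin. The HTOXAR3 arrays read 13.33, 13.20 and 13.24 untreated, 13.79, 13.80 and 13.71 under OXA and 12.89, 12.98 and 12.85 under OXA plus Curcumin. Every HTOXAR3 array stood above every HT29 array, and no pair of groups overlapped. In both lines the OXA arrays were the highest of their line, but OXA plus Curcumin lay above untreated in HT29 and below it in HTOXAR3. The means ran from 5.22 ± 0.27 (SD, n = 3) in untreated HT29 through 6.10 ± 0.14 and 7.10 ± 0.09 to 12.91 ± 0.06, 13.26 ± 0.07 and 13.77 ± 0.05 in HTOXAR3 under OXA. Against untreated cells of the same line, OXA arrays differed by 1.88 (SE 0.11) in HT29 and 0.51 (SE 0.11) in HTOXAR3. Because the untreated arrays chose the members, differences from them carry no test here. Whether fewer cells made the transcript or each cell held less of it cannot be told apart in any of these values.

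CLEC3A was lower under OXA than untreated in both lines, the opposite direction to DMKN. On HT29 arrays CLEC3A read 6.33, 6.13 and 6.80 untreated, 3.91, 4.27 and 4.31 under OXA and 4.44, 4.10 and 4.48 under OXA plus Curcumin. None of these treated HT29 arrays was well above background, and their groups overlapped. In HTOXAR3 it read 14.35, 14.29 and 14.30 untreated, 12.56, 12.45 and 12.61 under OXA and 11.45, 11.47 and 11.18 under OXA plus Curcumin. The HTOXAR3 groups stepped down without overlap, from 14.31 ± 0.03 through 12.54 ± 0.08 to 11.36 ± 0.16, and the lowest of them was still far above untreated HT29 (6.42 ± 0.34). OXA arrays differed from untreated by -1.78 (SE 0.16) in HTOXAR3. In HT29 CLEC3A was at least 4.79-fold lower under OXA and at least 4.24-fold lower under OXA plus Curcumin than untreated. Such a bound is the mean of the bright group less the mean, over the arrays of the dim group, of the higher of the gene's own signal and the lowest signal of any oligo well above background on that array. Where that lowest signal lies below the gene's own, the bound equals the fitted fold. It holds for the main processing alone.

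CACNG6 followed the order of DMKN in every group of both lines. It read 4.82, 4.95 and 5.16 in untreated HT29, 6.40, 6.17 and 6.48 under OXA and 5.62, 5.78 and 5.88 under OXA plus Curcumin. HTOXAR3 arrays read 10.697, 10.50 and 10.55 untreated, 10.94, 10.78 and 10.73 under OXA and 10.07, 10.23 and 10.09 under OXA plus Curcumin. As with DMKN, no groups overlapped, OXA was highest within each line, and OXA plus Curcumin lay above untreated in HT29 and below it in HTOXAR3. The means ran from 4.98 ± 0.17, 5.76 ± 0.13 and 6.35 ± 0.16 in HT29 to 10.13 ± 0.09, 10.58 ± 0.10 and 10.82 ± 0.11 in HTOXAR3. OXA differed from untreated by 1.37 (SE 0.11) in HT29 and by 0.24 (SE 0.11) in HTOXAR3, where the closest untreated and OXA arrays read 10.697 and 10.73.

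TM4SF4 was high in HT29 and lower under treatment in both lines. It read 14.42, 14.51 and 14.54 in untreated HT29, 13.87, 13.96 and 13.96 under OXA and 13.61, 13.74 and 13.89 under OXA plus Curcumin. In HTOXAR3 the values were 7.76, 7.66 and 7.67, 6.70, 6.92 and 6.87 and 6.30, 6.59 and 6.34 in the same order. All HT29 arrays lay above all HTOXAR3 arrays, every HTOXAR3 array was well above background, and only the treated HT29 groups overlapped each other. From low to high the means were 6.41 ± 0.16, 6.83 ± 0.12 and 7.70 ± 0.05 in HTOXAR3, then 13.75 ± 0.14, 13.93 ± 0.05 and 14.49 ± 0.07 in HT29. Under OXA it differed from untreated by -0.56 (SE 0.09) in HT29 and -0.87 (SE 0.09) in HTOXAR3.

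DDC stood apart from TM4SF4 in the size of its difference between untreated and OXA-treated HT29. HT29 arrays read 11.02, 11.01 and 11.12 untreated, 9.40, 9.52 and 9.57 under OXA and 8.92, 9.23 and 9.04 under OXA plus Curcumin. HTOXAR3 arrays read 4.71, 5.37 and 4.99, 3.95, 4.29 and 4.24 and 3.83, 3.91 and 3.68 in that order. No groups overlapped, but none of the treated HTOXAR3 arrays was well above background, so these groups cannot be ordered. DDC means were 11.05 ± 0.06 in untreated HT29, 9.50 ± 0.09 under OXA and 9.06 ± 0.16 under OXA plus Curcumin, and 5.03 ± 0.33 in untreated HTOXAR3. OXA differed from untreated by -1.55 (SE 0.14) in HT29. In HTOXAR3 DDC was at least 1.82-fold lower under OXA and at least 2.19-fold lower under OXA plus Curcumin than untreated. A second DDC oligo at chr7:50560631-50560690 (hg19) was well above background on replicate 1 of untreated HT29 alone (6.11), so no direction is read from it.

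KBTBD11 differed little between untreated and OXA-treated cells of either line. It read 12.74, 12.85 and 12.73 in untreated HT29, 12.65, 12.69 and 12.73 under OXA and 12.43, 12.48 and 12.62 under OXA plus Curcumin. HTOXAR3 read 6.94, 7.03 and 6.87 untreated, 7.23, 7.10 and 7.21 under OXA and 6.38, 6.66 and 5.82 under OXA plus Curcumin. HT29 arrays untreated and under OXA overlapped, HTOXAR3 under OXA lay just above untreated, and the OXA plus Curcumin arrays were the lowest of each line, with the widest spread in HTOXAR3. Its means were 6.28 ± 0.42, 6.95 ± 0.08 and 7.18 ± 0.07 in HTOXAR3 and 12.51 ± 0.10, 12.69 ± 0.04 and 12.77 ± 0.07 in HT29, from low to high. OXA differed from untreated by -0.08 (SE 0.15) in HT29 and 0.23 (SE 0.15) in HTOXAR3. Over all names, OXA and untreated arrays did not overlap for 34.5% in HT29 and 34.3% in HTOXAR3, and no count of members is set against these shares, because the untreated arrays chose the members.

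**Figure D1:**
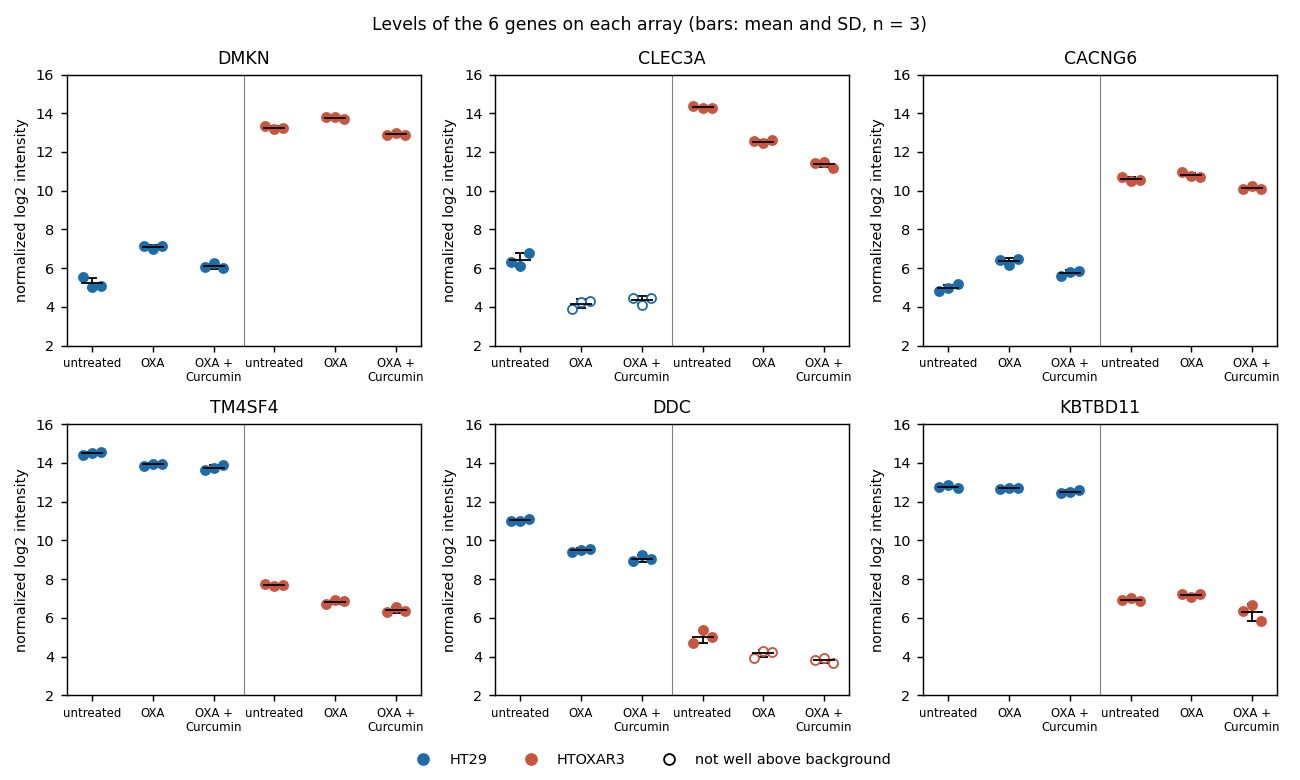
Normalised log2 intensity (vertical axis) of the 6 genes on each of the 18 arrays by line and treatment, with open points for arrays not well above background and bars for the mean and SD of 3 arrays. The lines stay apart for every gene, and CLEC3A is not above background in treated HT29 nor DDC in treated HTOXAR3. At the oligo with the highest mean, DMKN and CACNG6 peak under OXA in both lines.

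The gap between the lines kept its direction for all 6 genes after treatment, and untreated sizes are given beside the treated ones as a description. Under OXA, 6 of 6 members were called between HTOXAR3 and HT29, against 14.1% of all names. The members were chosen for large untreated gaps between these same lines, so these calls were to be foreseen. Nothing is read from their count. DMKN was 101-fold higher in HTOXAR3 under OXA (log2 difference 6.66, SE 0.11, adjusted p = 5.53e-13), against 8.04 untreated at the same oligo. The DMKN oligo at 35994213 had 3.22 untreated and 3.61 under OXA, so the gap was not smaller at every oligo. CLEC3A was at least 332-fold higher (adjusted p = 2.02e-12), a bound because HT29 was not above background. Its fitted log2 gap ran from 6.46 to 10.35 over all alternatives, so 332-fold is no minimum across them. For CACNG6 the gap was 4.47 (SE 0.11, adjusted p = 2.00e-11), 22.1-fold, against 5.604 untreated. TM4SF4 was 137-fold lower in HTOXAR3 (-7.10, SE 0.09, adjusted p = 2.35e-14) against -6.80 untreated. DDC was at least 40.4-fold lower (adjusted p = 5.44e-11), with HTOXAR3 dim. KBTBD11 was 45.6-fold lower (-5.51, SE 0.15, adjusted p = 5.44e-11) against -5.82 untreated. Whether the gap under OXA differs from the untreated gap was not tested, since the untreated arrays chose the genes.

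Under OXA plus Curcumin the line gap was again called for 6 of 6 members, against 13.9% of names, a count with the same limit. In HTOXAR3 DMKN was 112-fold (log2 difference 6.81, SE 0.11, adjusted p = 4.15e-13) and CACNG6 20.7-fold higher (4.37, SE 0.11, adjusted p = 2.40e-11). CLEC3A was at least 130.2-fold higher (adjusted p = 1.03e-11), with a fitted log2 gap of 5.25 to 8.76 over all alternatives. TM4SF4 was 162-fold (-7.34, SE 0.09, adjusted p = 2.38e-14) and KBTBD11 74.9-fold lower (-6.23, SE 0.15, adjusted p = 1.54e-11). DDC was at least 36.1-fold lower (adjusted p = 6.85e-11).

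**Figure D2:**
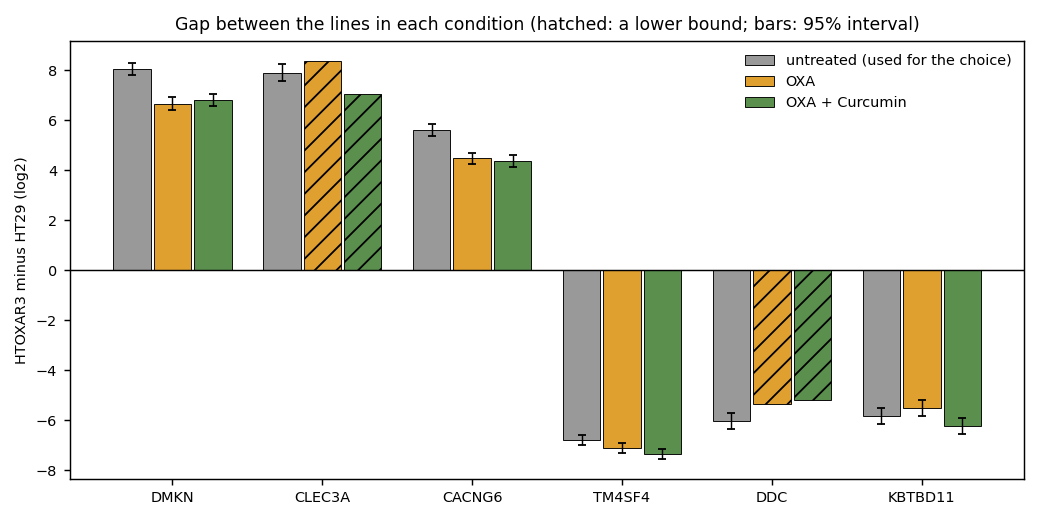
HTOXAR3 minus HT29 (log2, vertical axis) for the 6 genes untreated, under OXA and under OXA plus Curcumin, with 95% intervals and hatching where a bar is a lower bound. At the oligo used, DMKN goes from 8.04 untreated to 6.66 and 6.81, and TM4SF4 from -6.80 to -7.10 and -7.34.

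The line gaps kept their direction within each slide that held both lines. Under OXA the gaps within slides B and C were DMKN 6.79 and 6.59, CLEC3A 8.29 and 8.21, CACNG6 4.77 and 4.27, TM4SF4 -7.26 and -7.07, DDC -5.57 and -5.30 and KBTBD11 -5.46 and -5.58. Under OXA plus Curcumin they were DMKN 6.73 and 6.92, CLEC3A 7.18 and 6.84, CACNG6 4.37 and 4.28, TM4SF4 -7.38 and -7.43, DDC -5.25 and -5.24 and KBTBD11 -6.08 and -6.39. With slide as a block the gaps under OXA were DMKN 6.75, CLEC3A 8.27, CACNG6 4.43, TM4SF4 -7.15, DDC -5.38 and KBTBD11 -5.52, with adjusted p of at most 8.22e-09. The blocked gaps under OXA plus Curcumin were DMKN 6.81, CLEC3A 6.99, CACNG6 4.34, TM4SF4 -7.37, DDC -5.27 and KBTBD11 -6.21, with adjusted p of at most 5.21e-09. Values of CLEC3A and DDC here are fitted differences against signal near background, not folds. Slide A held no HTOXAR3 array.

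At the oligo with the highest mean, DMKN and CACNG6 were called lower in both lines when Curcumin was added to OXA. In HT29 these calls did not hold under all alternatives, and the other DMKN oligos did not pass there. In HT29, 2 of 6 members fell and none rose, where 2.39% of all names fell, a share that includes dim names. With only the 21883 names well above background on all arrays of a group fitted, 2687 were called in either direction. With all names fitted it was 2002. In HT29 DMKN fell from 7.10 under OXA to 6.10 under OXA plus Curcumin, 2.00-fold (log2 change -1.003, SE 0.11, adjusted p = 0.000530). CACNG6 fell from 6.35 to 5.76 (-0.59, SE 0.11, adjusted p = 0.0244). The remaining members did not pass the test in HT29, and CLEC3A was not well above background on either side. TM4SF4 differed by -0.18 (95% interval -0.38 to 0.02), KBTBD11 by -0.18 (-0.50 to 0.14) and DDC by -0.43 (-0.74 to -0.12, adjusted p = 0.763). With slide as a block DMKN changed by -0.91 (adjusted p = 0.00173; -0.84 within slide B and -1.17 within slide C) and CACNG6 by -0.61 (adjusted p = 0.0542; -0.47 and -0.60), so that its call was lost. The CACNG6 call was also lost without replicate 1 (adjusted p = 0.118) or 3 (0.145) of HT29 under OXA, or without replicate 1 (0.155) or 2 (0.0927) under OXA plus Curcumin. Fitted on the arrays of these groups alone, neither gene passed (DMKN adjusted p = 0.216, CACNG6 0.829). Over all alternatives the adjusted p ran from 4.16e-05 to 1 for DMKN and from 0.00220 to 0.829 for CACNG6.

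In HTOXAR3, all 3 genes that are high in that line fell when Curcumin was added to OXA, and so did KBTBD11. That is 4 of 6 members, where 4.41% of all names fell, and none rose. The members had to be well above background untreated, while that share includes dim names. With only the 21883 names well above background on all arrays of a group fitted, 4025 were called in either direction. With all names fitted it was 3198. CLEC3A had the largest change, from 12.54 to 11.36, a 2.26-fold fall (log2 change -1.17, SE 0.16, adjusted p = 0.00164). KBTBD11 fell 1.86-fold, to 6.28 (-0.90, SE 0.15, adjusted p = 0.00764). DMKN fell 1.81-fold (-0.86, SE 0.11, adjusted p = 0.00122) and CACNG6 1.61-fold (-0.69, SE 0.11, adjusted p = 0.00500). TM4SF4 missed the threshold (-0.42, SE 0.09, adjusted p = 0.0539). DDC was not well above background on either side. With slide as a block the 4 genes kept their calls (adjusted p = 0.00229 for CLEC3A, 0.0198 for KBTBD11, 0.000876 for DMKN and 0.00895 for CACNG6) and TM4SF4 was called (0.0312), at unchanged estimates. Within slides B and C the changes were -1.11 and -1.21 for CLEC3A, -0.86 and -0.92 for KBTBD11, -0.90 and -0.84 for DMKN, -0.88 and -0.60 for CACNG6 and -0.40 and -0.43 for TM4SF4. With replicate number as a block TM4SF4 was called as well (adjusted p = 0.0350). It was also called under Benjamini-Hochberg adjustment, where only names well above background were fitted, and without replicate 1 of HTOXAR3 under OXA (adjusted p = 0.0493) or replicate 2 under OXA plus Curcumin (0.0200). CLEC3A lost its call with the scanner software's processed signal (adjusted p = 0.148), and all 4 lost it when fitted on these groups alone (DMKN 0.0516, CLEC3A 0.0606, CACNG6 0.132, KBTBD11 0.685). Over all alternatives the adjusted p ran from 1.89e-06 to 0.0516 for DMKN, 3.43e-06 to 0.148 for CLEC3A, 6.38e-05 to 0.132 for CACNG6, 0.000690 to 0.685 for KBTBD11 and 0.00487 to 0.854 for TM4SF4.

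**Figure D3:**
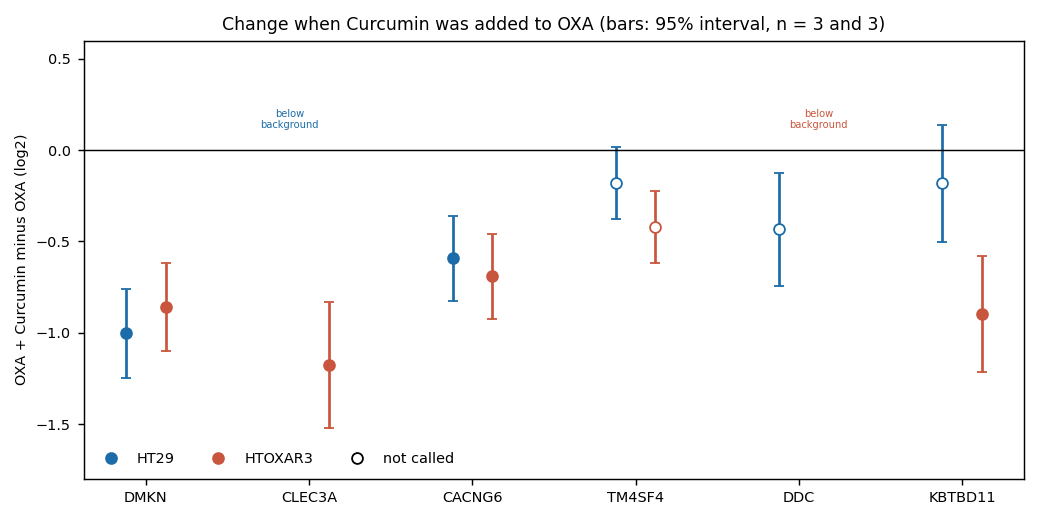
Log2 change when Curcumin was added to OXA (vertical axis) for the 6 genes in each line, with 95% intervals, n = 3 and 3 arrays, and open points for changes that were not called. At the oligo with the highest mean, DMKN falls in both lines (-1.003 and -0.86), though its other oligos did not pass in HT29. KBTBD11 has -0.18 in HT29 and -0.90 in HTOXAR3.

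No member was shown to respond to Curcumin differently in the lines. The test of that difference in limma called 0 of 6 members, against 0.135% of all names. At an unadjusted p below 0.05 stood 2 members and 3526 of the 36203 names with a value. CLEC3A came closest, with a more negative change in HTOXAR3 (log2 difference -1.35, SE 0.23, adjusted p = 0.147), but in HT29 it was not well above background in either group. With slide as a block its value was -1.28. KBTBD11 differed by -0.72 (95% interval -1.17 to -0.26, -0.62 and -0.81 within slides B and C), DMKN by 0.14 (-0.20 to 0.49), CACNG6 by -0.10 (-0.43 to 0.23) and TM4SF4 by -0.24 (-0.52 to 0.04). Within slides B and C these were -0.06 and 0.33 for DMKN, -0.40 and 0.00617 for CACNG6 and -0.11 and -0.36 for TM4SF4, so that DMKN and CACNG6 had no fixed sign. So the call of KBTBD11 in HTOXAR3 and its absence in HT29 do not show a difference between the lines. CLEC3A was called for this difference with a normexp offset of 16 or 50, with Benjamini-Hochberg adjustment, and when only names well above background on all arrays of a group were fitted.

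DMKN is measured by 3 oligos of 60 bases along its minus strand on chromosome 19, which differ in how far apart the lines stood. The oligo used above lies at chr19:35988135-35988194, another at chr19:35990861-35990920 and the third at chr19:35994213-35994272, all on hg19, and each was on the array once. The middle oligo is shown because it is dim in untreated HT29, and the TM4SF4 oligo, at chr3:149216588-149216647 on the plus strand, because that gene had the largest gap on the lower side. Both are printed as on the array, with no base marked by capitals.
DMKN, middle oligo: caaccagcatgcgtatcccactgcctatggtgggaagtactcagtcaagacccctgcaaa
TM4SF4: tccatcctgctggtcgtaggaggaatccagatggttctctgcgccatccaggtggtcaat
The middle DMKN oligo read 4.79, 4.77 and 4.48 in untreated HT29, none well above background, 5.12, 5.34 and 5.34 under OXA and 5.05, 4.78 and 4.37 under OXA plus Curcumin. In HTOXAR3 it read 10.58, 10.52 and 10.47, 10.91, 10.98 and 10.88 and 9.98, 10.04 and 9.97 in the same order. In HTOXAR3 its OXA arrays were the highest and its OXA plus Curcumin arrays the lowest, and in HT29 untreated and OXA plus Curcumin arrays overlapped near background. The oligo at 35994213 read 8.16, 7.88 and 7.74 in untreated HT29, 8.15, 7.87 and 7.72 under OXA and 7.60, 7.64 and 7.59 under OXA plus Curcumin. Its HTOXAR3 values were 11.16, 11.11 and 11.17, 11.47, 11.55 and 11.57 and 10.75, 10.87 and 10.88. Here untreated and OXA-treated HT29 overlapped, so that the higher level under OXA in HT29 seen with the oligo at 35988135 was not seen at this one, and OXA plus Curcumin arrays lay below untreated ones there in both lines. The gap between the lines under OXA was 6.66 at 35988135, 5.65 at 35990861 and 3.61 at 35994213, called at each. At 35994213 it was 3.22 under OXA plus Curcumin. When Curcumin was added in HTOXAR3 the other oligos fell too, with changes of -0.92 (adjusted p = 0.00358) at 35990861 and -0.69 (0.00608) at 35994213. In HT29 they did not pass (-0.54, adjusted p = 0.230, and -0.30, adjusted p = 1), so the DMKN call in HT29 rests on the oligo at 35988135. Which DMKN transcripts each oligo reads was not measured.

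**Figure D4:**
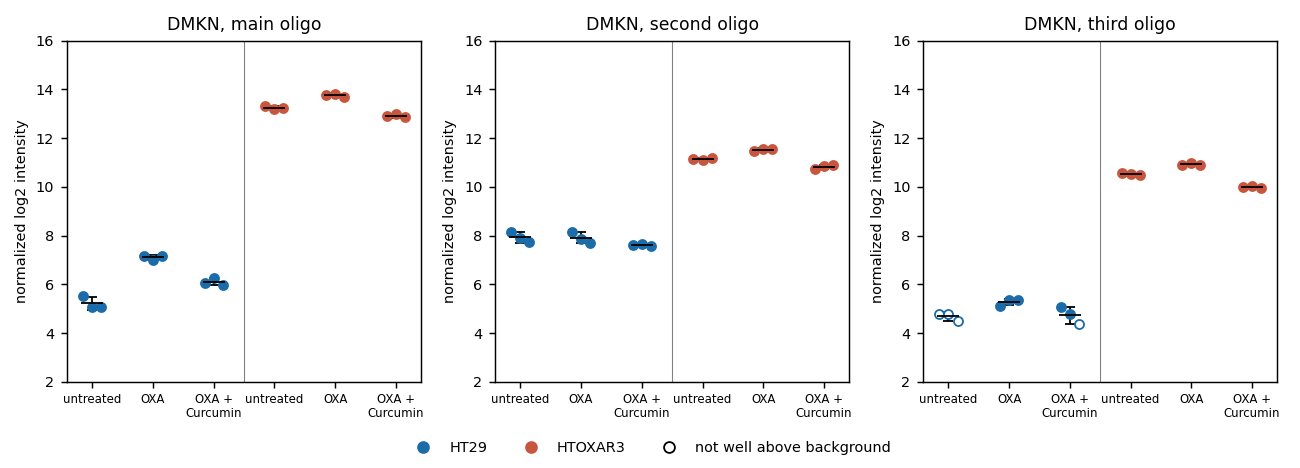
Normalised log2 intensity (vertical axis) of the 3 DMKN oligos on each of the 18 arrays, with open points for arrays not well above background and bars for mean and SD of 3 arrays. All 3 oligos separate the lines, and only the oligo with the highest mean separates untreated, OXA and OXA plus Curcumin arrays in HT29.

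Across the 9 arrays of a line the members split into groups with like profiles. These are descriptions over 9 arrays in 3 treatment groups. DMKN and CACNG6 followed each other in both lines (Pearson r = 0.940 in HT29 and 0.945 in HTOXAR3). CLEC3A and TM4SF4, which mark opposite lines, also ran together, with r = 0.923 in HT29 and 0.982 in HTOXAR3. For TM4SF4 and DDC r was 0.977 and 0.938, the latter with DDC at background in treated cells. DMKN and CLEC3A, both high in HTOXAR3, had r = -0.861 in HT29, where CLEC3A was at background after treatment, and 0.294 in HTOXAR3. KBTBD11 was closest to TM4SF4 in HT29 (0.834) and to CACNG6 in HTOXAR3 (0.884).

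Other genes had profiles close to those of the members over the 9 arrays of the line in which each is high. Among 17724 names well above background on all 9 HTOXAR3 arrays, the highest Pearson r with DMKN were those of MINOS1 (0.993), PRKD3 (0.992) and NRGN (0.992). Among the names most like CLEC3A were HMGB3 (0.998) and CRYL1 (0.998). For CACNG6 the closest were IFITM1 (0.988), RBM26-AS1 (0.987) and LOC100289092 (0.983), and IFITM1, an interferon-induced membrane protein, had means of 6.74 untreated, 7.22 under OXA and 5.42 under OXA plus Curcumin in HTOXAR3. Among 19063 names in HT29, those closest to TM4SF4 were SPEF2 (0.998), SREK1IP1 (0.996) and NRARP (0.995), the last encoding a regulator of Notch signalling. DDC was followed by CKAP2 (0.998), LEPREL1 (0.996) and BEND3 (0.996). LEPREL1, a collagen prolyl hydroxylase, had HT29 means of 9.90, 8.33 and 7.77 in the same order. For KBTBD11, with its flatter profile, they were CERS6 (0.976), RBMXL1 (0.972) and DOCK1 (0.966). 

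Genes that share a role with the HTOXAR3 members were compared between the untreated lines, where 6.26% of all names were higher and 5.28% lower in HTOXAR3 and the median difference was -0.03. Of 30 genes of stratified epithelium, where dermokine is known from, 7 were higher in HTOXAR3 and none lower, with a median of 0.11. IVL, a precursor of the cornified envelope, was at least 18.3-fold higher. PI3, the elastase inhibitor elafin, was higher by log2 2.48 (SE 0.09, adjusted p = 1.57e-09), the keratin KRT13 by 2.22 (SE 0.08, adjusted p = 1.32e-09) and the small proline-rich protein SPRR3 by 1.98 (SE 0.18, adjusted p = 2.51e-05). The others were SBSN, SPRR1B and CNFN, and 23 of the 30 were not called. When Curcumin was added to OXA, 1136 of 36203 names rose and 866 fell in HT29, and 1602 rose and 1596 fell in HTOXAR3. PI3 fell in HT29 (-0.55, adjusted p = 0.0110), the 1 gene of the 30 called there (list median -0.09, all names -0.02). In HTOXAR3 SBSN (1.12) and KRT13 (0.53) rose and CNFN fell (-0.65), so that these genes did not follow DMKN down together (list median -0.09, all names -0.02). KRT14 of the marker list fell in HT29 (-1.17, adjusted p = 0.000813) and in HTOXAR3 (-0.997, adjusted p = 0.00192), calls that were lost when all its oligos were averaged. SBSN, SPRR1B, CNFN and KRT14 were named after their values were seen.

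Of 18 genes of cartilage matrix and relatives of CLEC3A, 3 were higher in untreated HTOXAR3 and none lower (median 0.10). COL9A3, a chain of collagen IX, was higher by 0.62 (SE 0.12, adjusted p = 0.0167) and the lectin CLEC11A by 0.33 (SE 0.06, adjusted p = 0.0179). The CLEC11A call was lost with the processed signal and with 75th percentile scaling. COMP, named after its value was seen, was at least 2.31-fold higher, but was well above background on only 2 of the 3 untreated HTOXAR3 arrays. CLEC11A fell in HTOXAR3 when Curcumin was added (-0.50, adjusted p = 0.000974), as CLEC3A did, alone of the 18 (median -0.21), and limma called 0 of them in HT29 (median -0.08), with 2 at an unadjusted p below 0.05. Of 25 other calcium channel subunits only CACNA2D4 was called between the untreated lines, higher in HTOXAR3 by 1.59 (SE 0.11, adjusted p = 1.23e-06; list median 0.06). CACNG4, another gamma subunit, differed by -0.24 and the beta subunit CACNB3 by 0.29 (adjusted p = 0.0580), which did not pass. CACNB3 fell with Curcumin in HTOXAR3 (-0.32, adjusted p = 0.0372), the only subunit called there (median -0.04). That call was lost with slide as a block, and limma called 0 subunits in HT29 (median -0.10; 1 at an unadjusted p below 0.05).

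The families of the HT29 members did not follow them as a whole. Of 5 other L6 genes, TM4SF5 (-1.83, SE 0.15, adjusted p = 5.12e-06) and TM4SF1 (-0.57, SE 0.06, adjusted p = 0.000128) were lower in untreated HTOXAR3, like TM4SF4. TM4SF18 went the other way, at least 40.9-fold higher there (list median -0.10). With Curcumin added to OXA, TM4SF18 fell in HTOXAR3 (-0.57, adjusted p = 0.00238; list median 0.21), a call lost with the processed signal, and TM4SF19, named after its value was seen and not well above background under OXA, rose in HT29 (adjusted p = 0.00637; list median 0.11). Of 21 genes of aromatic amine synthesis, breakdown and transport, 3 were higher and 2 lower in untreated HTOXAR3 (median -0.04). MAOA, which breaks down serotonin, was lower (-2.27, SE 0.12, adjusted p = 8.18e-08), as DDC was, and so was MAOB (-0.45). Higher were PNMT, which makes adrenaline (1.06, adjusted p = 0.00208), AANAT of melatonin synthesis (1.02, adjusted p = 0.0415) and GCH1, which starts the synthesis of a cofactor of hydroxylases (0.49, adjusted p = 0.0111). The AANAT call was lost with slide as a block. QDPR, which recycles that cofactor, fell with Curcumin in HT29 (-0.60, adjusted p = 0.00524) and in HTOXAR3 (-0.51, adjusted p = 0.0129). The other genes called there were TH in HT29 (-0.33; list median -0.09) and PNMT in HTOXAR3 (-1.13; list median -0.05), all downward. MAOB, QDPR and TH were named after their values were seen.

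Of 20 genes of CUL3 and its adaptors, 5 were lower and 1 higher in untreated HTOXAR3 (median -0.23). Next to KBTBD11, KLHL3 was lower (-1.11, SE 0.13, adjusted p = 0.000185), and so was CUL3 itself (-0.59, SE 0.06, adjusted p = 4.69e-05), whose call was lost when all its oligos were averaged. KBTBD4 (-0.46), KLHL21 (-0.44) and KLHL7 (-0.28) were also lower and KLHL22 higher (0.69, adjusted p = 0.00194), while KBTBD3 did not pass (-0.61, adjusted p = 0.0787). When Curcumin was added, KLHL21 rose in HT29 (0.35, adjusted p = 0.0156; list median -0.02), and KLHL7 (0.58), KLHL21 (0.56) and KBTBD4 (0.32) rose in HTOXAR3 (list median 0.00), where 1602 of 36203 names rose, the direction opposite to that of KBTBD11 there. With slide as a block the KLHL21 call in HT29 was lost. KBTBD4, KLHL7 and KLHL21 were named after their values were seen.

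The genomic neighbours of the members were compared between the untreated lines, taking all names with an oligo within 500 kb on hg19. Over all names 6.26% were higher and 5.28% lower in HTOXAR3, and the counts below are to be read beside these shares. Of 63 names around DMKN, 5 were higher and 3 lower in untreated HTOXAR3 (median -0.05). SBSN, suprabasin, also of differentiating keratinocytes, lay 20 kb away and was at least 2.32-fold higher, but was well above background on only 2 untreated HTOXAR3 arrays. KRTDAP at 9.50 kb was well above background on 1 untreated array and GAPDHS at 35.0 kb on none. FFAR2 at 46.9 kb had -0.33 and was not called. FXYD3, a regulator of the sodium pump 373 kb away, had the largest neighbouring difference, in the opposite direction to DMKN (-2.85, SE 0.07, adjusted p = 1.96e-11). Of 7 names around CLEC3A only WWOX was called, higher in HTOXAR3 by 2.44 (SE 0.10, adjusted p = 3.20e-09; 68.1 kb away; median 0.02). The nearest, an unnamed transcript at 13.7 kb, had -0.09, and VAT1L and another on the other side were not well above background. CACNG6 lies next to other gamma subunit genes, CACNG8 at 30.3 kb (0.06) and CACNG7 at 68.8 kb (-0.15), and neither was called. VSTM1 at 28.3 kb and TARM1 at 57.4 kb were not well above background on any untreated array. Of its 37 neighbours 4 were higher, MYADM with the largest difference (1.18, adjusted p = 0.000401; 136 kb), and 1 lower (median -0.07).

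Around TM4SF4, 3 of 19 names were higher and 2 lower in HTOXAR3 (median 0.05). WWTR1, the Hippo pathway coactivator TAZ, 21.9 kb away, was at least 6.71-fold higher, opposite to TM4SF4, as was TM4SF18 at 176 kb. TM4SF1-AS1 (-0.71, adjusted p = 2.84e-05; 112 kb) and TM4SF1 were lower, so genes of this cluster lay on both sides, and COMMD2, named after its value was seen, was higher (0.55). WWTR1-AS1 (-0.35) and an unnamed transcript at 114 kb (-0.42) were not called. Of 11 names around DDC only GRB10, an adaptor of insulin and growth factor receptors 97.1 kb away, was called, lower like DDC (-1.93, SE 0.06, adjusted p = 2.72e-10; median -0.39, with 2 of the 11 well above background on 3 or more untreated arrays), while FIGNL1 at 13.2 kb had -0.19. An unnamed transcript at 7.89 kb was well above background on 1 untreated array and an antisense transcript of DDC on none. Around KBTBD11 limma called 0 of 13 names (median -0.29), with 2 at an unadjusted p below 0.05, and ARHGEF10 at 48.3 kb had -0.22. An unnamed transcript at 28.7 kb had -1.29 (SE 0.77), the direction of KBTBD11, and another at 34.1 kb and MYOM2 were not well above background.

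**Figure D5:**
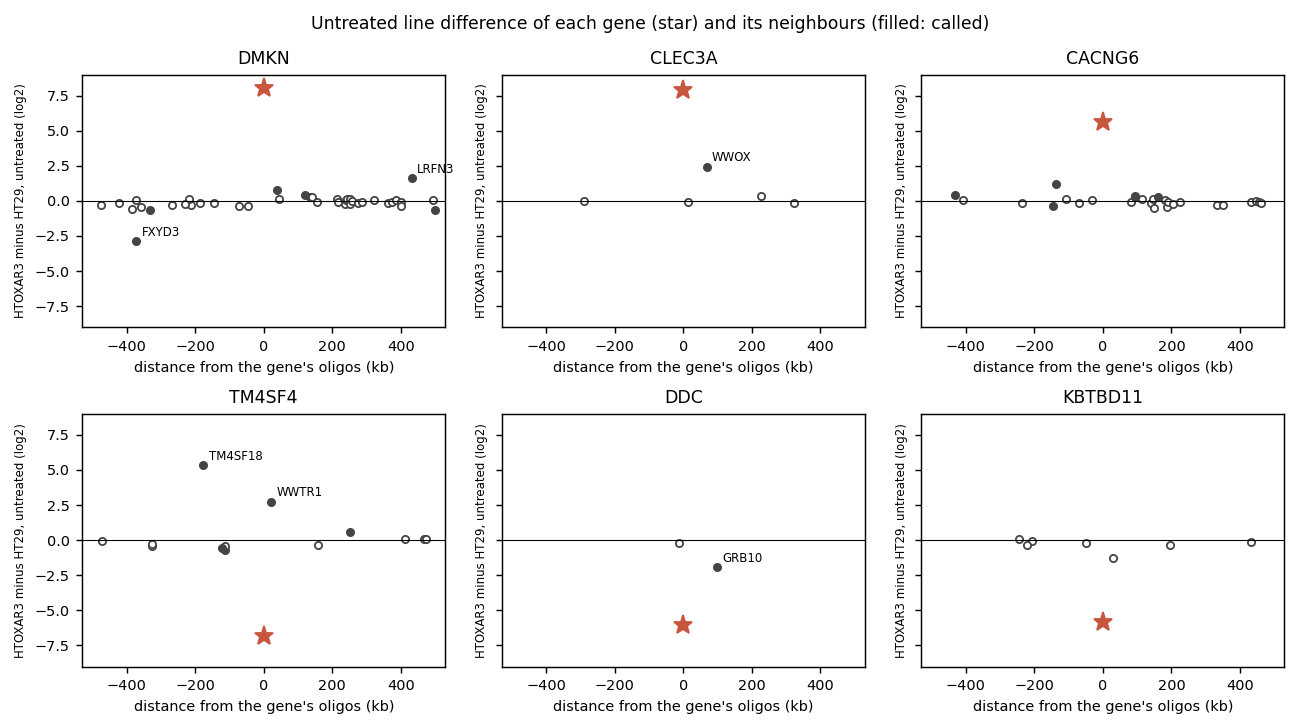
Difference between the untreated lines (HTOXAR3 minus HT29, log2, vertical axis) of each member (star) and of names within 500 kb, by distance from the member's oligos (kb, horizontal axis), filled where called. Only names well above background on 3 or more untreated arrays are shown, which leaves out some of the nearest neighbours, SBSN among them. Each member stands far from the nearest neighbours shown, and called neighbours lie on both sides of 0 around DMKN, CACNG6 and TM4SF4.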

How the data were processed

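Per the file headers, the deposited arrays hold spot and background intensity from Agilent Feature Extraction, not normalised between arrays. The submitters' own normalised values carry no gene names and were not used, and their processing notes name limma without a version. Spot intensity was corrected by normexp (offset 0), quantile normalised and averaged over spots of an oligo, and the oligo with the highest mean stood for each name. limma 3.58.1 (R 4.3.3, with data.table at version 1.17.8; Python 3.11.15 and matplotlib 3.10.9 for sequences and plots) fitted 6 group terms on all 18 arrays. Genes were called at p below 0.05 after Benjamini-Yekutieli adjustment where the fold also exceeded 1.2. Array oligos carry hg19 coordinates, promoters GRCh38.p14.

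Members and gene lists were chosen with earlier results of these data known. Named list genes were those called in any of the 5 tested comparisons or between the untreated lines, at most the 4 of each list with the largest untreated difference and well above background on 3 or more of 6 arrays. Neighbours named were the nearest 2 on either side and the called one with the largest difference, like genes the 3 with the highest r, and genes beside the choice the next 2 each way. A few results that these rules cover are not reported here.

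Alternatives were normexp offsets of 16 and 50, the processed signal, 75th percentile scaling, the mean of all oligos, Benjamini-Hochberg adjustment, a fold above 2, a background filter, slide or replicate number as a block, only the groups compared, each array left out, and single oligos. For list genes they were chosen after seeing the data. Residuals from the group means correlated above 0.1 between arrays of the same replicate number, in all 3 pairs, only for adding Curcumin in HTOXAR3 and OXA against untreated in HT29. There each pair of arrays also shared a slide, which was not so in the other comparisons. Pairing by number and by slide therefore cannot be told apart, and the replicate block is given where it changed a call. With limma the submitters' choice and no counts, no other test was fitted.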

Additional observations from a re-analysis of the deposited data

Results flagged for a closer look

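DMKN and CACNG6 drew attention because, at the oligo with the highest mean, from untreated to OXA plus Curcumin, all arrays of the lines moved opposite ways. For DMKN the difference was 0.88 in HT29 and -0.35 in HTOXAR3, and for CACNG6 it was 0.78 and -0.45. With a normexp offset of 50 the difference in HT29 was 0.44 for DMKN and 0.35 for CACNG6. For the mean of the DMKN oligos the difference in HT29 was 0.20. At the DMKN oligo at 35994213 it was -0.32 and -0.31, the same direction in both lines, and at 35990861 the HT29 arrays overlapped, so the opposite movement was seen at 1 of the 3 DMKN oligos. The difference between the lines was not tested, because the untreated arrays chose the members.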

How the results depend on the processing

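The gap between the lines under OXA and under OXA plus Curcumin was called for 6 of 6 members under every alternative run on the count, and without each array of the groups in turn.

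For Curcumin added to OXA in HT29, where 2 members were called, the count was 1 (DMKN) with a fold change above 2 and 1 (DMKN) with slide as a block, of which the latter's cause was not tested. Fitted on the groups compared alone, where 6 arrays give the spread, limma called 0 members, with 3 at an unadjusted p below 0.05 and 16 of all names called. Leaving out 1 array gave 1 to 2, with CACNG6 lost without replicate 1 or 3 under OXA and without replicate 1 or 2 under OXA plus Curcumin.

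In HTOXAR3, where 4 were called, the count was 1 (CLEC3A) with a fold change above 2 and 0 by limma on the groups compared alone, with 6 at an unadjusted p below 0.05. With the replicate block the counts were 2 in HT29 and 5 in HTOXAR3, where TM4SF4 was added, and it changed no other call of a member.

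The line difference in the effect of Curcumin, called by limma for 0 members, was called for 1 (CLEC3A) with a normexp offset of 16, with an offset of 50, under Benjamini-Hochberg adjustment and where only the 21883 names well above background were fitted. The last tests fewer names, and Benjamini-Hochberg is the less strict adjustment, calling 323 names against 49. The cause for the offsets was not tested. For DMKN this difference, 0.14, changed sign without a call in either direction: -0.000219 with an offset of 16, -0.20 with an offset of 50, -0.21 for the mean of its oligos and -0.39 at each of the oligos at 35990861 and 35994213. Within slides, as values with no test, it was -0.06 on B and 0.33 on C, and for CACNG6 (-0.10) it was -0.40 and 0.00617. The cause was not tested.

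At the second DDC oligo, not well above background after treatment, Curcumin added in HT29 gave 0.19 and the line gap under OXA 0.21. Their sign is opposite to that at the main oligo, but at background no direction is read from them. DDC in HT29 was called for adding Curcumin with an offset of 50 alone. Signal near background limits CLEC3A in treated HT29 and DDC in treated HTOXAR3 to bounds.

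The processed signal put the median of all names at -0.14 between the lines under OXA, -0.19 for OXA against untreated in HTOXAR3 and, for OXA plus Curcumin against untreated, at -0.15 in HT29 and -0.19 in HTOXAR3, and changes are to be read against these. Scaling to the 75th percentile put it at 0.15 between the lines under OXA, -0.14 for adding Curcumin in HTOXAR3 and, for OXA plus Curcumin against untreated, at -0.16 in HT29 and -0.17 in HTOXAR3. The members called there by quantile normalisation kept their direction, with CLEC3A losing its call in HTOXAR3 under the processed signal. Among alternatives for list genes and neighbours, chosen after seeing the data, no gene called in the main fit changed direction. A change of sign in a gene not called there was not counted apart and stands among the values kept. For the untreated lines 606 values kept their call or moved little, 13 lost a call, 7 gained a call and 13 moved. For adding Curcumin it was 155 kept, 9 lost and 16 moved in HT29, and 198 kept, 16 lost and 20 moved in HTOXAR3.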
